A study of Mus musculus with 8 samples.

Results

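Hnf4a, Foxa1, Foxa2 and Foxa3 are 4 liver transcription factors, 3 of which were also among the factors put into mouse fibroblasts to turn them into hepatocyte-like cells. The account covers every probe set that the platform annotation pairs with 1 of these 4 symbols, taken one by one over 8 arrays. There were 7 such probe sets of the 45037 measured, and 4 genes of the 17097 that carry a single symbol. Hnf4a had 4 probe sets, and Foxa1, Foxa2 and Foxa3 had 1 each. All 7 are described, and none was removed for low signal.

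Total RNA of induced hepatocyte-like cells (iHep), cultured primary hepatocytes (PH) and mouse embryonic fibroblasts (MEF) was hybridized to single-colour expression arrays, 1 array per sample. The iHep group consists of 3 lines with 1 array each, all at passage 10, grown from fibroblasts after transduction with replication-defective retroviruses and kept in the hepatocyte culture medium called Hep medium. The factors of line 4a1CK were Foxa1, Hnf4a, Klf4 and c-Myc. Those of line 4a3CK were Foxa3, Hnf4a, Klf4 and c-Myc, and line 4a3 had Foxa3 and Hnf4a alone. Hnf4a was thus given to all 3 lines and Foxa2 to none. Colonies of the lines with c-Myc and Klf4 appeared within 5 days, and those of 4a3 within 2 weeks. The 3 PH arrays are of hepatocytes perfused from livers of male C57/B6 mice of 8 to 10 weeks and then cultured in Hep medium. The 2 MEF arrays are of C57/B6 embryonic fibroblasts of day 13.5. The labels name neither the retroviral promoter nor the strain of the fibroblasts behind the lines, and they do not say whether a line is a clone. They also do not say whether arrays of PH or of MEF came from separate animals or cultures, so p-values measure the spread between these arrays, which may be technical.

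HNF4A is a nuclear receptor that binds DNA as a homodimer and keeps up the expression of apolipoproteins, clotting factors and metabolic enzymes in adult hepatocytes. FOXA1, FOXA2 and FOXA3 are forkhead (winged-helix) factors, described as pioneer factors because they can bind nucleosomal DNA, and they open liver enhancers in the embryonic endoderm. HNF4A and the FOXA proteins occupy many liver enhancers together and take part in each other's expression in the liver, and pairs of them are used to convert fibroblasts to hepatocyte-like cells.

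In the RefSeq annotation of GRCm38.p6, Hnf4a spans chr2:163506811-163572907 and Foxa2 spans chr2:148042877-148046969. Foxa1 spans chr12:57540628-57548029 and Foxa3 spans chr7:19013283-19023539. The RefSeq promoter table has windows of 300 bases, reaching from 250 bases before to 50 bases after an annotated start, for all 4 genes, 7 windows in all. Hnf4a has 2 of them. In mammals the upstream start region of Hnf4a is known as P2 and is used in pancreas and gut, and the downstream one is P1, used in adult liver. The 2 Hnf4a windows and the Foxa1 window are shown because these genes had the largest differences between PH and MEF among the 4, and the Foxa1 window is the 1 with a motif match. The Hnf4a windows are chr2:163506607-163506906 and chr2:163546905-163547204, both on the plus strand, and the Foxa1 window is chr12:57546062-57546361 on the minus strand. Each is written 5′ to 3′ on the strand of its gene, with a motif match in capitals.
Hnf4a upstream window: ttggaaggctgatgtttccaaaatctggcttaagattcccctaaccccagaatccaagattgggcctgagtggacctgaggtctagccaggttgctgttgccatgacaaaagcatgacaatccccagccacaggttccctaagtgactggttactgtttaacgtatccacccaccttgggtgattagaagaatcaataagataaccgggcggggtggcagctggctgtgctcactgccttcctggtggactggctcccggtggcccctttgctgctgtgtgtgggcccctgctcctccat
Hnf4a downstream window: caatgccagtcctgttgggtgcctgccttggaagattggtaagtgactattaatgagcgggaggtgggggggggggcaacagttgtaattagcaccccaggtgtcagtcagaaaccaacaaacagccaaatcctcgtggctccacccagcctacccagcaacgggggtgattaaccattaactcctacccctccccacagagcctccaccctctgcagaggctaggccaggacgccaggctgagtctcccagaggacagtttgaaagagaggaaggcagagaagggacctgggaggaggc
Foxa1 window: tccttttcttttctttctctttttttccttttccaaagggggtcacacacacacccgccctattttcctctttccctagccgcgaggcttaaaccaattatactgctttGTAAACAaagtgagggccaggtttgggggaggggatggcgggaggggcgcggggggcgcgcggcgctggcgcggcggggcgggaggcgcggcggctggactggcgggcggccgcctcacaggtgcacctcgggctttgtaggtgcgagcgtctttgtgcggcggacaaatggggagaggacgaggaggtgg
The forkhead motifs TGTTTAC and TGTTTGC and the HNF4 motif CAAAGTC were searched on both strands of the 7 windows. The 1 match was TGTTTAC in the Foxa1 window, read as GTAAACA on the gene's strand. Its first base is at position -141 from the annotated start of that window. The whole window lies inside the span of Foxa1 given above, so this start is not at the 5′ end of the gene. TGTTTAC stood in 3.65% and TGTTTGC in 5.07% of all 32851 promoter windows of the table, and 8.48% held either. CAAAGTC stood in 4.44%. These letter counts describe the windows and say nothing of binding.

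The arrays of a group differed in overall signal. The median log2 signal over all probe sets was 4.43, 4.40 and 4.45 in lines 4a1CK, 4a3CK and 4a3, 4.23, 4.24 and 5.06 in PH 1, PH 2 and PH 3, and 4.24 and 4.23 in MEF 1 and MEF 2. PH 3 stood apart from the other PH arrays, with a median difference of 0.71 from PH 1, while PH 1 and PH 2 lay close together, with an SD of their differences of 0.145 against 0.472 for the MEF pair. Over all probe sets PH had a median difference of 0.25 from MEF, and iHep one of 0.18 from MEF and -0.06 from PH. The mean log2 signal of 8 hepatocyte markers was 4.84, 7.86 and 8.80 in lines 4a1CK, 4a3CK and 4a3, between 11.5 and 11.6 in the PH arrays, and 4.10 and 4.07 in the MEF arrays. In line 4a1CK, 1 of these 8 markers, Apoa1, lay 2 or more above the MEF mean. Albumin read 4.01 in this line against 4.12 and 4.01 in MEF. Most markers of this list were thus near the MEF level in 4a1CK, a line labelled as hepatocyte-like cells. Of 21 genes described as targets of HNF4A, taken up below, 3 lay 2 or more above the MEF mean in 4a1CK. Among them were Apoc2 (8.83) and Apoc3 (8.86), which are not in the marker list. Of 10 fibroblast markers, 7 passed as lower in iHep than in MEF, against 4.26% of all genes. Not every marker of this list fell. Vim read 12.54, 11.79 and 12.25 in 4a1CK, 4a3CK and 4a3, against 12.07 and 12.30 in MEF. Fn1 read 11.47, 9.71 and 11.45 in these lines, against 11.63 and 11.24 in MEF. Because the RNA is of whole cultures, fewer cells of a type and less RNA per cell cannot be told apart.

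**Figure D1:**
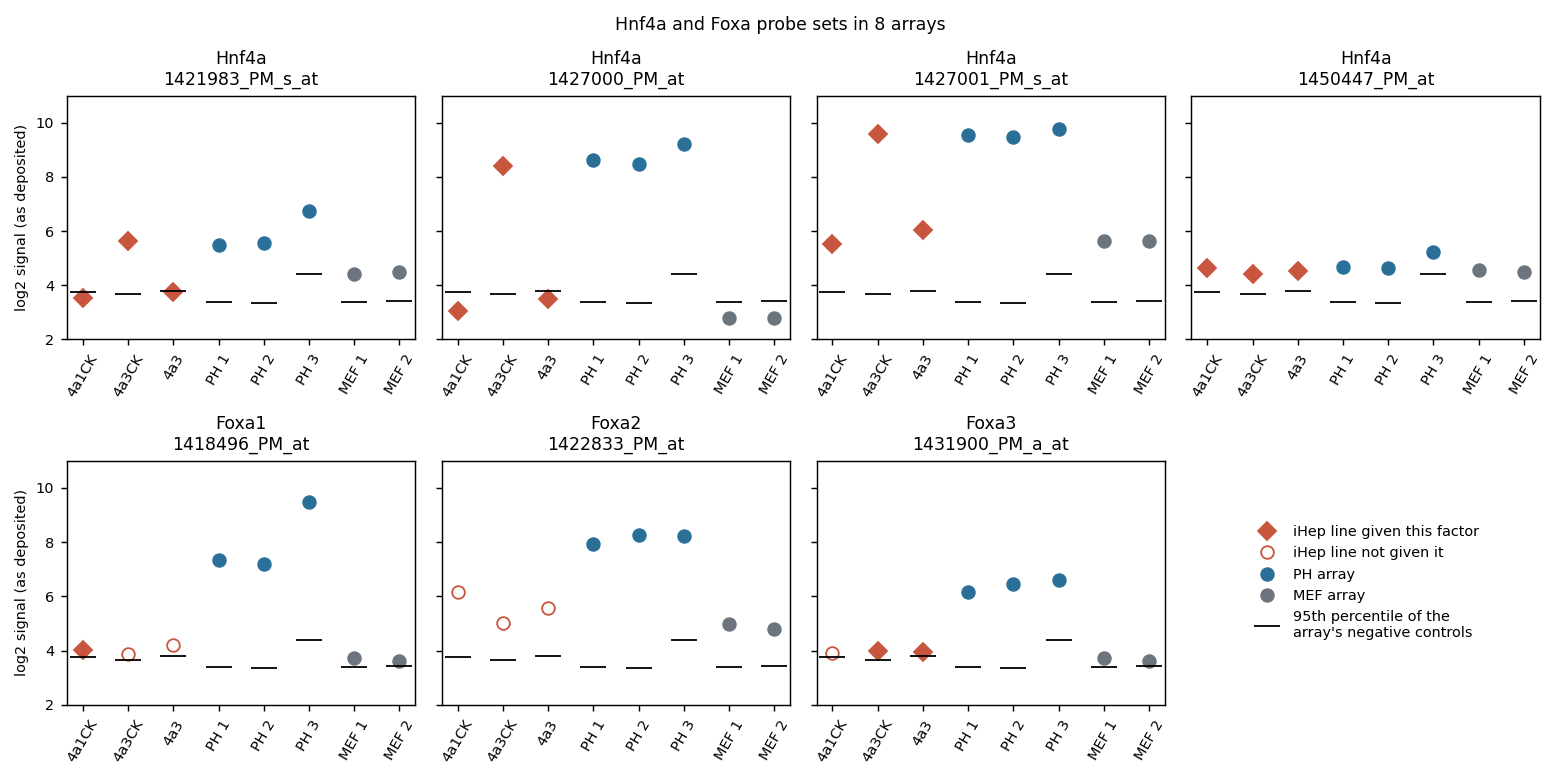
Log2 signal (vertical axis, as deposited) of the 7 probe sets of Hnf4a, Foxa1, Foxa2 and Foxa3 in each of the 8 arrays (horizontal axis). Red diamonds are iHep lines that received the factor, open circles lines that did not, blue points PH arrays and grey points MEF arrays, and the short black lines give the 95th percentile of the negative control probe sets of that array. On 3 of the 4 Hnf4a probe sets line 4a3CK lies near the PH arrays, and the Foxa1 and Foxa3 values of the lines lie near the MEF arrays whether or not the factor was given.

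Hnf4a, the nuclear receptor of the group, was high in all PH arrays and in 1 of the 3 lines. Its brightest probe set, 1427001_PM_s_at, read 5.50 in 4a1CK, 9.59 in 4a3CK and 6.04 in 4a3, against 9.54, 9.48 and 9.78 in PH and 5.65 and 5.62 in MEF. Line 4a3CK lay inside the range of the PH arrays, 4a1CK lay below both MEF arrays and 4a3 lay 0.40 above their mean. Probe set 1427000_PM_at read 3.05 in 4a1CK, 8.39 in 4a3CK and 3.50 in 4a3, against 8.61, 8.49 and 9.21 in PH and 2.79 and 2.79 in MEF. Here 4a3CK lay just under the lowest PH array, and the other lines and MEF were all below the 95th percentile of the negative controls of their arrays. Both of these probe sets were designed from the same expressed sequence tag, per the platform annotation, so they are not independent readings.

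The 2 other Hnf4a probe sets were designed from the RefSeq mRNA record and read lower. Probe set 1421983_PM_s_at read 3.53 in 4a1CK, 5.62 in 4a3CK and 3.75 in 4a3, against 5.47, 5.57 and 6.76 in PH and 4.40 and 4.50 in MEF. The order of the lines was the same, with 4a3CK within the range of PH, but 4a1CK and 4a3 lay below both MEF arrays and below the 95th percentile of their negative controls on this probe set. Probe set 1450447_PM_at read 4.62 in 4a1CK, 4.41 in 4a3CK and 4.52 in 4a3, against 4.68, 4.62 and 5.22 in PH and 4.57 and 4.47 in MEF. All arrays were within a narrow band on this probe set apart from PH 3, whose overall signal was raised, and 4a3CK had the lowest of its 8 values. The ending _s_at marks a probe set whose probes match more than 1 transcript.

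Between PH and MEF, 1 of the 4 Hnf4a probe sets passed the test, which is limma's moderated test. It asks for a Benjamini-Hochberg adjusted p under 0.05 and a size of 1 or more on the log2 scale, or 2-fold. On 1427000_PM_at, PH averaged 8.77 and MEF 2.79, a log2 difference of 5.98 ± 1.32 (standard error, adjusted p = 0.0432). Since no MEF array exceeded the negative controls there, the difference is better read as a bound, at least 41.0-fold higher in PH than the 95th percentile of the controls on the MEF arrays. On 1427001_PM_s_at PH averaged 9.60 ± 0.16 (SD, n = 3) and MEF 5.63 ± 0.02 (SD, n = 2). The log2 difference there was 3.97 ± 0.99 and missed the threshold (adjusted p = 0.0733). The differences on 1421983_PM_s_at and 1450447_PM_at were 1.48 ± 0.62 (adjusted p = 0.37) and 0.32 ± 0.24 (adjusted p = 0.666).

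The Hnf4a calls depended on the spread within the iHep group, which sets a shared error for all contrasts and here holds 1 line far above the other 2. With the line 4a3CK left out, the adjusted p of PH against MEF was 2.58e-05 on 1427000_PM_at and 8.29e-05 on 1427001_PM_s_at. Without 4a1CK, 1427001_PM_s_at also passed (adjusted p = 0.0299). The call on 1427000_PM_at was lost without PH 1 (adjusted p = 0.108), PH 2 (0.1), PH 3 (0.165), MEF 1 (0.209) or MEF 2 (0.195), with differences between 5.76 and 6.12 in all 5 cases. PH lay above MEF without overlap on all 4 probe sets, as did 29.3% of all probe sets, and on 1450447_PM_at the difference was only 0.32.

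Between iHep and MEF none of the Hnf4a probe sets passed. The log2 differences were 2.19 ± 1.32 on 1427000_PM_at (adjusted p = 0.431), 1.41 ± 0.99 on 1427001_PM_s_at (adjusted p = 0.501), -0.15 ± 0.62 on 1421983_PM_s_at (adjusted p = 0.914) and -0.0041 ± 0.24 on 1450447_PM_at (adjusted p = 0.994). Between iHep and PH none passed either, with differences of -3.79 ± 1.18 on 1427000_PM_at (adjusted p = 0.118) and -2.56 ± 0.89 on 1427001_PM_s_at (adjusted p = 0.163). Without 4a3CK iHep differed from PH by -5.50 on 1427000_PM_at (adjusted p = 6.20e-05), by -3.83 on 1427001_PM_s_at (adjusted p = 0.000169) and by -2.29 on 1421983_PM_s_at (adjusted p = 0.0114), and all 3 passed. Both remaining lines were at background on 1427000_PM_at and 1421983_PM_s_at, where PH was at least 32.2-fold and 4.49-fold higher than the 95th percentile of their negative controls.

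The probe sets of Hnf4a gave unequal differences for the same gene. Each further probe set was set against 1427001_PM_s_at in a limma fit over all 11801 such within-gene differences of 7180 genes, of which 4.83% passed between PH and MEF, 10.6% between iHep and MEF and 7.56% between iHep and PH. The PH to MEF difference of 1427000_PM_at was larger by 2.01 ± 0.39 (adjusted p = 0.0263) and passed, but it rests on MEF values at background. With MEF at the 95th percentile of the negative controls it was larger by at least 1.39. Those of 1421983_PM_s_at and 1450447_PM_at differed from it by -2.49 ± 0.59 (adjusted p = 0.0536) and -3.65 ± 1.10 (adjusted p = 0.116), and did not pass. None of the 3 passed between iHep and MEF or between iHep and PH. The calls moved with single arrays. That of 1427000_PM_at was lost without PH 1, PH 2, PH 3, MEF 1 or MEF 2 (adjusted p of 0.0796, 0.0741, 0.0559, 0.142 and 0.135). The difference of 1421983_PM_s_at passed without 4a1CK (0.0494), 4a3CK (0.00738) or PH 3 (0.0486), and that of 1450447_PM_at without 4a3CK (0.000759). Without 4a3CK all 3 also passed between iHep and PH (adjusted p of 0.0281 for 1421983_PM_s_at, 0.00419 for 1427000_PM_at and 0.00148 for 1450447_PM_at).

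Foxa1, a forkhead factor given to line 4a1CK, was high in PH and near the negative controls in every line and in MEF. Probe set 1418496_PM_at read 4.01 in 4a1CK, 3.87 in 4a3CK and 4.19 in 4a3, against 7.35, 7.18 and 9.47 in PH and 3.71 and 3.63 in MEF. Line 4a1CK, which received Foxa1, lay between the 2 lines that did not. PH exceeded MEF by 4.33 ± 0.59 (adjusted p = 0.004), and iHep differed from PH by -3.98 ± 0.53 (adjusted p = 0.00411). The value of PH 3 was far above those of PH 1 and PH 2, and without PH 3 the differences were 3.60 for PH against MEF (adjusted p = 0.000232) and -3.24 for iHep against PH (adjusted p = 0.000246).

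Foxa2, which acts in early endoderm and in the metabolic response of the liver to fasting, was given to no line. Probe set 1422833_PM_at read 6.16 in 4a1CK, 5.02 in 4a3CK and 5.56 in 4a3, against 7.94, 8.28 and 8.23 in PH and 4.96 and 4.79 in MEF. All 3 lines lay above both MEF arrays and below all PH arrays, with 4a1CK 1.29, 4a3CK 0.14 and 4a3 0.68 above the MEF mean. For 4a3CK the value was 5.02 against 4.96 in MEF 1, and relative to the negative control median of its own array it was 1.95 against 2.10 in MEF 1, so 4a3CK then lay below that MEF array. The difference of PH from MEF was 3.28 ± 0.32 (adjusted p = 0.000682) and that of iHep from PH was -2.57 ± 0.29 (adjusted p = 0.00192). That of iHep from MEF was 0.71 ± 0.32 and did not pass (adjusted p = 0.296).

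Foxa3, the FOXA factor that becomes abundant in differentiated hepatocytes, was given to lines 4a3CK and 4a3. Probe set 1431900_PM_a_at read 3.92 in 4a1CK, 3.99 in 4a3CK and 3.94 in 4a3, against 6.17, 6.44 and 6.59 in PH and 3.71 and 3.62 in MEF. The 3 lines lay between 3.92 and 3.99, so the lines with and without the factor did not separate on this probe set. These values were near background. The 95th percentiles of the negative controls were 3.75 in 4a1CK, 3.67 in 4a3CK and 3.78 in 4a3, and small differences there may not show. PH exceeded MEF by 2.73 ± 0.21 (adjusted p = 0.000177), and iHep differed from PH by -2.45 ± 0.19 (adjusted p = 0.000225).

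Over the 7 probe sets, 4 passed as higher in PH than in MEF, and 0 as lower, against 2.08% and 1.69% of all probe sets. Of the 7, 6 had an unadjusted p under 0.05, as had 5509 of all 45037 probe sets. PH lay above MEF without overlap on all 7, as on 29.3% of all probe sets. iHep lay below PH without overlap on 5, against 17.9%. None of the 7 passed between iHep and MEF, where 1.35% of all probe sets passed as higher and 2.99% as lower. None of the 7 had an unadjusted p under 0.05 there, against 8189 of all 45037 probe sets. Between iHep and PH, 3 passed as lower, the 3 Foxa probe sets, and 0 as higher, against 3.61% and 1.05% of all probe sets. Of the 7, 6 had an unadjusted p under 0.05 there, as had 7673 of all 45037 probe sets. The lines lay above MEF without overlap on 4 probe sets, namely Hnf4a 1427000_PM_at and those of Foxa1, Foxa2 and Foxa3, but 48.7% of all probe sets did so. Relative to the median of the negative controls of its own array, Foxa1 read 0.94, 0.80 and 1.10 in 4a1CK, 4a3CK and 4a3 against 0.85 and 0.73 in MEF, Foxa2 read 3.09, 1.95 and 2.47 against 2.10 and 1.89, and Foxa3 read 0.85, 0.92 and 0.85 against 0.85 and 0.73, so on that scale the groups overlapped for all 3.

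The 2 runs of accession numbers under which the arrays were deposited both hold PH and MEF arrays. In the first, which holds the lines, PH 3 and MEF 2, the PH to MEF difference was 5.84 for Foxa1, 3.44 for Foxa2, 2.96 for Foxa3, 6.42 for Hnf4a 1427000_PM_at and 4.16 for Hnf4a 1427001_PM_s_at. In the second, with PH 1, PH 2 and MEF 1, these differences were 3.56, 3.15, 2.59, 5.76 and 3.87 in the same order. The lines were all in the first, where iHep against PH 3 gave -5.44 for Foxa1, -2.65 for Foxa2 and -2.64 for Foxa3. Every one of these kept the direction of the pooled value.

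**Figure D2:**
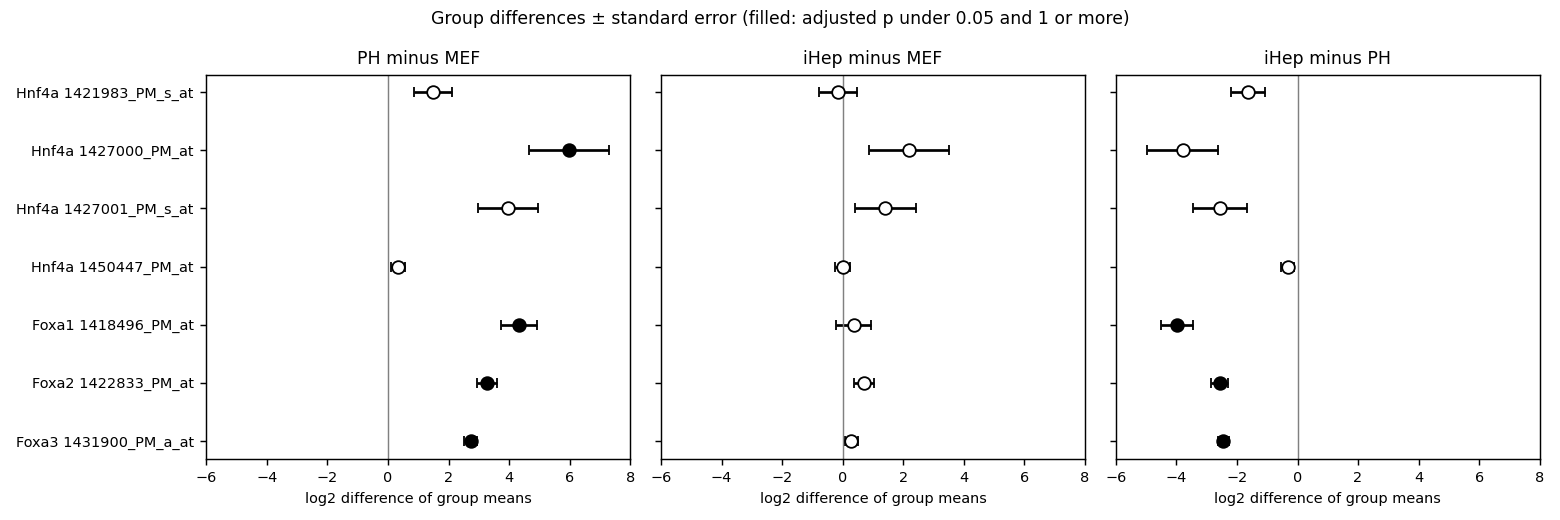
Log2 difference of group means (horizontal axis) for each member probe set (vertical axis) in the comparisons PH minus MEF, iHep minus MEF and iHep minus PH, with bars for the standard error of the limma fit. Filled points passed the adjusted p and size thresholds: 4 in PH minus MEF, 0 in iHep minus MEF and 3 in iHep minus PH, and the wide bars of Hnf4a 1427000_PM_at and 1427001_PM_s_at reflect the spread of the 3 lines.

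The lines' values were then set against the factors each received, as differences of single arrays with no test. Hnf4a was given to all 3 lines, yet 4a3CK exceeded 4a3 by 3.55 on 1427001_PM_s_at, and 4a1CK differed from 4a3CK by -4.08. On 1427000_PM_at, where 4a1CK and 4a3 were below the 95th percentile of their negative controls, 4a3CK was at least 24.9-fold above that level in 4a1CK and at least 24.3-fold above it in 4a3. Of all probe sets, 0.966% were higher and 0.737% lower by 2 or more in 4a3CK than in 4a3, and 1.01% were higher and 1.22% lower in 4a1CK than in 4a3CK. In 4a1CK against 4a3, where no member differed by 2, the shares were 0.475% and 0.5%. Between 4a1CK and 4a3 the differences ranged from -0.53 to 0.11 over the 4 Hnf4a probe sets, on 2 of which, 1427000_PM_at and 1421983_PM_s_at, both lines were below that level. For Foxa1, the line that received it differed by 0.15 from 4a3CK and by -0.18 from 4a3. For Foxa3, the line that did not receive it differed by -0.07 from 4a3CK and by -0.02 from 4a3. For Foxa2, given to none, 4a1CK exceeded 4a3CK by 1.14 and 4a3 by 0.60. Where the probes lie relative to the retroviral coding sequences is not given in the sources used here, so vector-derived and endogenous transcripts cannot be told apart, and whether the vectors were still transcribed at passage 10 was not tested.

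The factors delivered beside them were read in the same way. Klf4, a zinc-finger factor used in pluripotency reprogramming, read 9.56 in 4a1CK and 9.43 in 4a3CK, which received it, and 10.60 in 4a3, which did not, on 1417394_PM_at. Its second probe set, 1417395_PM_at, read 7.69 and 8.17 in these lines and 8.31 in 4a3. On the first, the PH values were 6.28, 6.30 and 7.50, and the MEF values 8.56 and 9.12. Myc read 8.48 in 4a1CK, 9.38 in 4a3CK and 8.48 in 4a3, against 9.14, 8.95 and 9.72 in PH and 6.69 and 8.71 in MEF. On both Klf4 probe sets the line that did not receive it read highest, and for Myc that line read as low as 4a1CK, which received it. The Hnf4a relative Hnf4g stayed between 2.52 and 4.10 on its 3 probe sets in all 8 arrays. Hnf4aos, a transcript antisense to Hnf4a that was looked up after the Hnf4a values had been seen, read 4.20, 4.19 and 4.13 in 4a1CK, 4a3CK and 4a3, 3.63, 3.59 and 4.81 in PH, and 3.72 and 3.84 in MEF, and 4a3CK was not above the other lines.

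Genes of like profile were listed by the root mean square (RMS) difference of log2 values centred on each gene's mean over the 8 arrays, on 1 probe set per gene, and this is a description over few arrays. For Hnf4a the 5 nearest were Fgf13 (0.298), a homolog of the fibroblast growth factors that acts inside the cell, the lipoprotein receptor Lsr (0.529), the lipopolysaccharide co-receptor Cd14 (0.530), the adhesion glycoprotein Smagp (0.565) and the zinc transporter Slc39a4 (0.567). Fgf13 was likewise high in 4a3CK and PH, with 4.61 in 4a1CK, 8.85 in 4a3CK and 5.65 in 4a3, against 8.78, 9.01 and 8.83 in PH and 5.25 and 5.61 in MEF. For Foxa1 they were the lipid droplet enzyme Hsd17b13 (0.212), the fatty acid elongase Elovl2 (0.222), the apolipoprotein Apof (0.285), 1300017J02Rik (0.345) and the plasma protein Itih4 (0.415). For Foxa2 they were the epithelial polarity gene Llgl2 (0.255), the NF-kB inhibitor Tnfaip3 (0.306), the carotene-cleaving enzyme Bco1 (0.310), Gm8783 (0.327) and the choline transporter-like gene Slc44a3 (0.358). For Foxa3 they were the tight junction gene Marveld2 (0.0952), Slc44a3 (0.138), the nuclear receptor Nr5a2 (0.141), Gstp3 (0.208) and the lipoprotein assembly gene Mttp (0.228). Foxa2 and Foxa3 shared Slc44a3 among these.

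**Figure D3:**
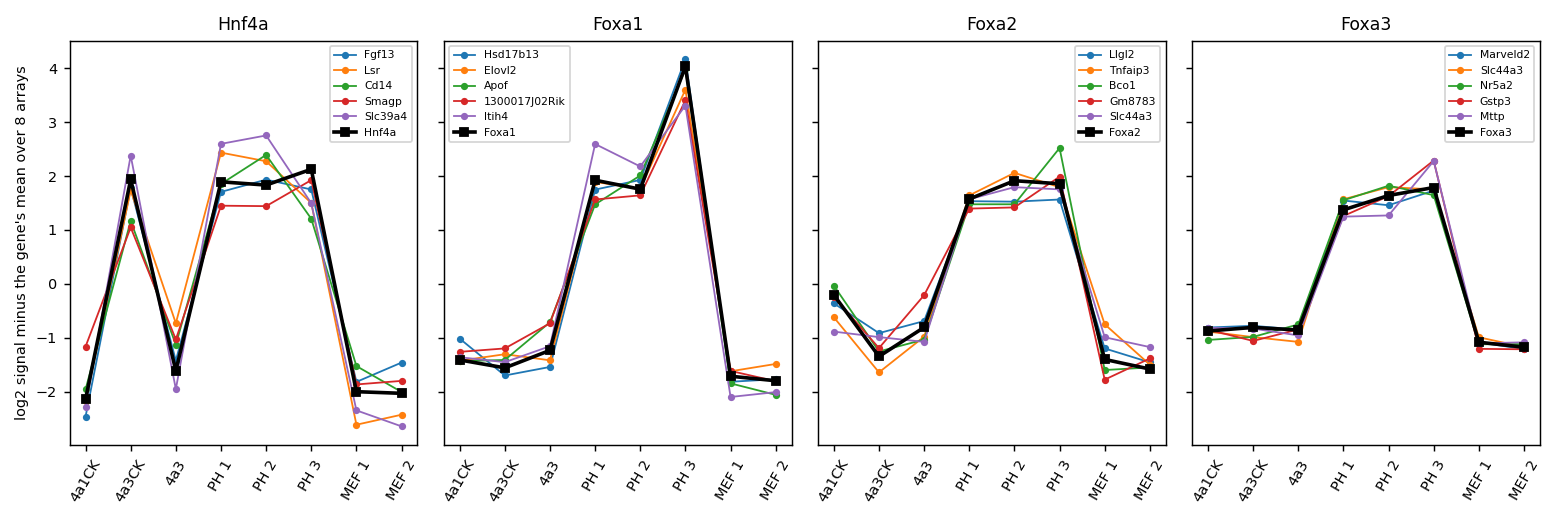
Log2 signal minus the gene's mean over the 8 arrays (vertical axis) for each member (black squares) and the 5 genes of smallest RMS difference from it (coloured lines), by array (horizontal axis); lines join arrays for reading and mark no order. The Hnf4a profile has a peak in 4a3CK beside the PH arrays, the Foxa1 profile is highest in PH 3, and the Foxa3 profile divides the PH arrays from the other 5.

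Other transcription factors of the hepatocyte network were taken from a list of 20, of which 18 were measured, with 1 probe set per gene. Between PH and MEF, 8 passed as higher and 1 as lower, against 3.11% and 2.39% of all genes. The median of the list was 0.91, beside 0.25 over all genes. The homeobox factor Hhex differed by 5.68 ± 0.26 (adjusted p = 1.5e-05), the bile acid receptor Nr1h4 by 3.79, Onecut1 by 3.17, Prox1 by 3.0, Nr5a2 by 2.79 and Cebpa by 2.18, and Tbx3 by -1.35. The largest that did not pass were Ppara (0.92), Creb3l3 (0.90) and Nr1i2 (0.68). Without PH 3, 6 passed as higher and 0 as lower, and the median was 0.47.

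In the lines most of these factors did not pass against MEF. Between iHep and MEF, 1 of the 18 passed as higher, the zinc-finger factor Gata6 (1.85 ± 0.37, adjusted p = 0.0269), and 1 as lower, Tbx3 (-1.41 ± 0.26, adjusted p = 0.0211), against 1.76% and 4.26% of all genes. Between iHep and PH, 7 passed as lower and 0 as higher, against 5.31% and 1.29% of all genes, and the median was -0.70 beside -0.09 over all genes. They were Hhex (-4.98), Nr1h4 (-3.64), Onecut1 (-2.75), Nr5a2 (-2.60), Prox1 (-2.32), Cebpa (-1.57) and Onecut2 (-1.55). Hhex read 4.71 in 4a1CK, 5.49 in 4a3CK and 5.09 in 4a3, against 10.15, 10.06 and 10.03 in PH and 4.35 and 4.44 in MEF. Line 4a3CK, high in Hnf4a, thus remained at 3.66 for Nr1h4 and 3.89 for Onecut1, against MEF values of 3.67 and 3.68 for Nr1h4 and 3.27 and 3.63 for Onecut1. Cebpb, named after its values were seen, was the 1 factor of the list 2 or more lower than the MEF mean in a line, with 6.79 in 4a3CK beside 10.93 in 4a1CK and 11.02 in 4a3.

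**Figure D4:**
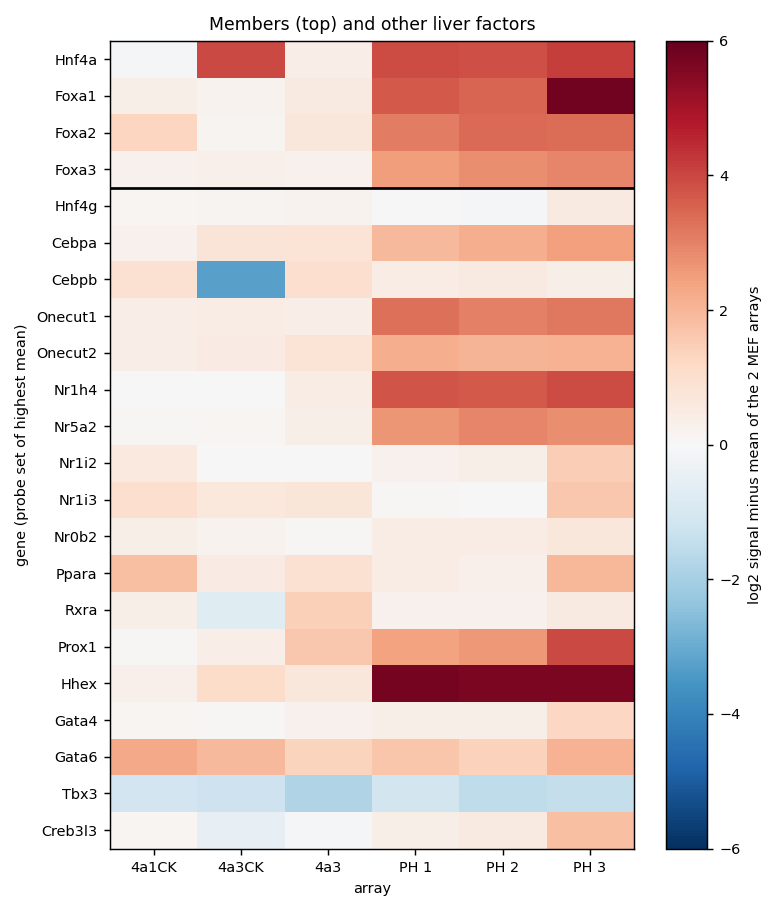
Log2 signal minus the mean of the 2 MEF arrays (colour, from blue for lower to red for higher) for the 4 members (above the black line) and 18 other liver transcription factors (vertical axis, 1 probe set per gene) in the 3 lines and 3 PH arrays (horizontal axis). In 4a3CK the red cell of Hnf4a is not matched in Foxa1, Foxa2, Foxa3, Nr1h4, Onecut1 or Hhex, which are red in the PH arrays.

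Other forkhead genes were compared as the wider family of the Foxa factors, 32 measured of a list of 37. Between PH and MEF 0 passed as higher and 1 as lower, Foxc1 (-3.35 ± 0.38, adjusted p = 0.00147), a mesenchymal forkhead factor. These compare with 3.11% and 2.39% of all genes. Between iHep and MEF 2 of the 32 passed as lower, Foxc1 (-2.72) and Foxp2 (-1.34), a share near the 4.26% of all genes. Between iHep and PH limma passed none. There 4 of the 32 had an unadjusted p under 0.05, against 3693 of all 17097 genes. The median of the forkhead list was 0.24 between PH and MEF, beside 0.25 for all genes. It was -0.01 after quantile normalization and -0.03 after array medians were subtracted. Without 4a3, without 4a3CK or without PH 3, 1 forkhead gene passed as higher in iHep than in MEF, and without 4a3, 1 passed as higher in iHep than in PH. The counts also moved with scaling. After quantile normalization 1 passed as higher in each comparison. With array medians or negative control medians subtracted, 1 passed as lower in iHep than in PH.

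Genes described as direct targets of HNF4A were next, 21 measured of a list of 24. Between PH and MEF 8 passed as higher and 0 as lower, against 3.11% and 2.39% of all genes. The list median was 1.33, beside 0.25 over all genes. Those that passed were the plasma proteins Trf (7.78), Serpina1a (7.77), Ambp (7.77) and Ttr (6.87), the apolipoproteins Apoa1 (5.22) and Apoc2 (5.12), the clotting factor F9 (2.88) and Mttp (2.70). The largest that did not pass were Apoc3 (2.86), Apob (1.41) and Apoa2 (1.33). Between iHep and MEF 1 passed as higher, Apoa1, with 7.16 ± 0.71 (adjusted p = 0.000893), against 1.76% of all genes. Between iHep and PH 4 passed as lower, against 5.31% of all genes, namely Ambp (-7.85), Ttr (-6.14), F9 (-2.49) and Mttp (-2.47). Of 15 genes described as targets of FOXA factors, 13 were measured, 8 of them shared with the HNF4A list. There 8 passed as higher between PH and MEF, against 3.11% of all genes, among them Alb (7.84), Afp (6.96) and Igfbp1 (6.12). The median was 5.22, and the largest that did not pass were Apob (1.41), G6pc (0.52) and Tat (0.44). Between iHep and MEF 1 passed as higher, again Apoa1, against 1.76% of all genes. Between iHep and PH 4 passed as lower, against 5.31% of all genes, namely Alb (-6.20), Ttr (-6.14), Igfbp1 (-5.89) and Cps1 (-1.95). Serpina1a belongs to a family of near-identical paralogs that its probe set may not separate.

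Several of these counts fell with fewer arrays. Without MEF 1 or without MEF 2, 4 HNF4A targets and 3 FOXA targets passed as higher in PH than in MEF, and without PH 3 the counts were 6 and 4. The FOXA count was 4 without PH 1 or without PH 2. Without 4a1CK, 3 genes of each list passed as higher in iHep than in MEF, and without 4a3CK, 3 HNF4A targets did. Between iHep and PH, 2 FOXA targets passed as lower without 4a1CK, PH 1 or PH 2, and 1 gene passed as higher without 4a1CK.

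The number of targets above MEF did not follow the order of the lines in Hnf4a signal, with 1 array per line. All 3 lines were given Hnf4a, and its vector-derived and endogenous transcripts cannot be told apart here. The part of Hnf4a in these counts was not tested. Of the 21 HNF4A targets, 3 lay 2 or more above the MEF mean in 4a1CK, 3 in 4a3CK and 5 in 4a3, beside 9 for the mean of PH. Of the 13 FOXA targets, the counts were 1, 3 and 5 in the same order, beside 8 for PH, and their medians were 0.27, 0.31 and 1.27, beside 5.22. Over all genes the shares were 2.28%, 2.25% and 2.34%. Alb read 4.01 in 4a1CK, 3.80 in 4a3CK and 9.30 in 4a3, against 11.94, 11.87 and 11.90 in PH. Afp read 2.85, 2.86 and 8.96 in these lines, against 10.21, 10.16 and 9.92 in PH. Both of these albumin-family genes were thus high in 4a3, a line with a low Hnf4a signal, and higher in PH. Trf read 4.58, 11.68 and 8.21 in 4a1CK, 4a3CK and 4a3, and was highest of the lines in 4a3CK. Apoc3 read 8.86, 3.74 and 7.10, and was at the MEF level (3.96 and 3.96) in 4a3CK. Apoa1 read 10.39, 12.66 and 12.82, against 10.45, 10.24 and 9.35 in PH and 5.30 and 4.29 in MEF, and lay above at least 2 of the 3 PH arrays in every line. Ambp read 3.73, 3.64 and 3.72 in the lines, against 11.70, 11.81 and 11.13 in PH and 3.86 and 3.70 in MEF.

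**Figure D5:**
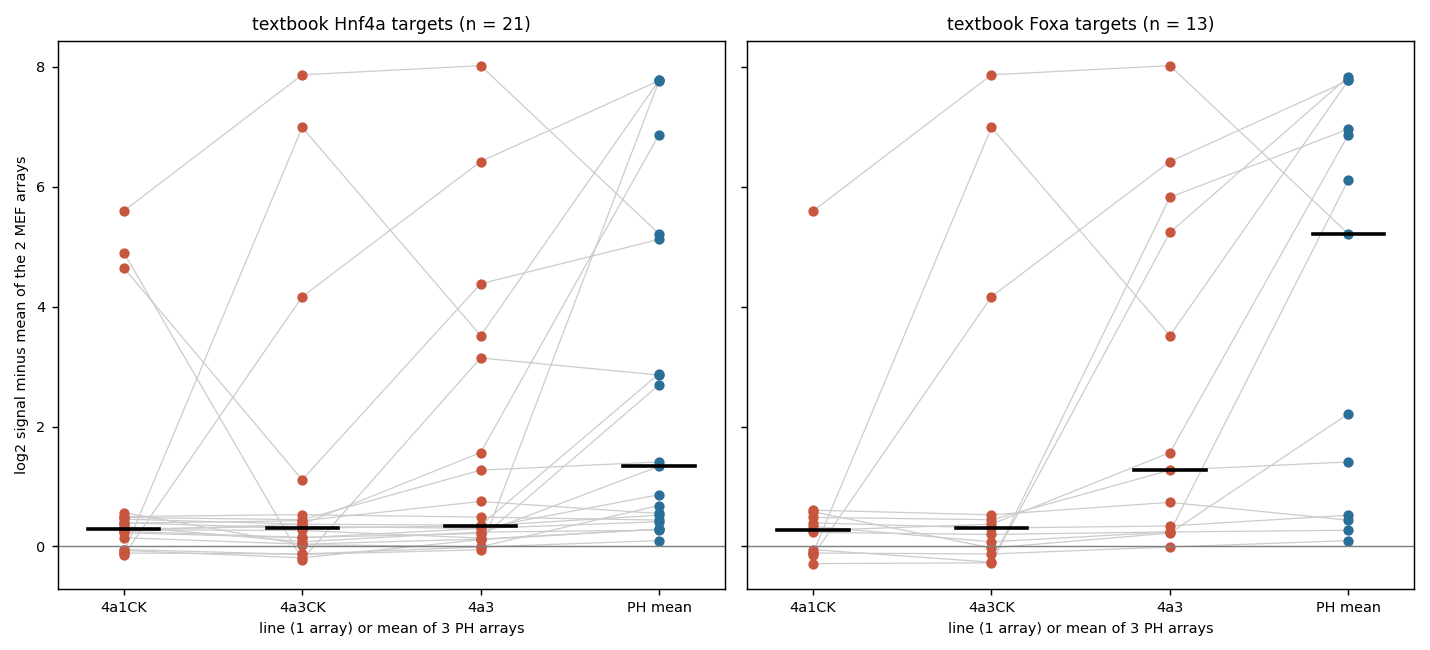
Log2 signal minus the mean of the 2 MEF arrays (vertical axis) for 21 textbook HNF4A targets (left) and 13 textbook FOXA targets (right) in each line and in the mean of the 3 PH arrays (horizontal axis). Each point is a gene, thin lines join the same gene, and black bars are medians, which for the FOXA targets are 0.27 in 4a1CK, 0.31 in 4a3CK, 1.27 in 4a3 and 5.22 in PH.

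Some markers of the gut were high in 4a3CK, the line of high Hnf4a signal, and their part in it was not tested. HNF4A is also expressed in intestine, stomach epithelium, kidney and pancreas. The mean log2 signal of 9 gut markers was 5.11, 8.24 and 5.59 in lines 4a1CK, 4a3CK and 4a3, between 4.37 and 5.12 in the PH arrays, and 4.16 and 4.22 in the MEF arrays. In 4a3CK 6 of the 9 lay 2 or more above the MEF mean, beside 1 in 4a1CK and 2 in 4a3. Over all genes the shares were 2.25%, 2.28% and 2.34% in 4a3CK, 4a1CK and 4a3. The intestinal homeobox factor Cdx2 read 9.01 in 4a3CK, the stomach genes Gkn2 and Gkn1 read 12.85 and 10.58, and the trefoil factor Tff1 read 12.22, while Cdx1 (3.27) stayed near MEF (3.03 and 2.99). Other gut markers had another order of the lines. The brush border gene Vil1 read 8.99 in 4a1CK, 6.02 in 4a3CK and 6.27 in 4a3, and was the 1 gut marker that passed as higher in iHep than in MEF (3.22 ± 0.75, adjusted p = 0.0488), while with quantile normalization, array medians or negative control medians subtracted 0 passed. Tff3 read 4.66 in 4a1CK, 11.54 in 4a3CK and 10.64 in 4a3, and so was high in a line of low Hnf4a signal too. Of 8 endoderm and pancreas markers 1 was 2 or more above the MEF mean in 4a3CK, Pdx1, with 5.97 in that line beside 3.86 in 4a1CK and 3.84 in 4a3, and the other 7 were not. The bile duct keratin Krt19 was high in all lines, with 10.70, 10.85 and 10.05, against 8.57, 8.29 and 6.32 in PH and 4.97 and 6.03 in MEF. It passed as higher in iHep than in MEF (5.03 ± 0.64, adjusted p = 0.00332). Of the other 4 bile duct markers, Sox9, a transcription factor of duct cells, read 4.33 in 4a1CK, 8.04 in 4a3CK and 5.39 in 4a3, against 7.81, 7.58 and 7.96 in PH and 5.82 and 6.01 in MEF. Sox9 was thus high in 4a3CK and PH. Krt19 was highest in the 3 lines, and the PH arrays also lay above both MEF arrays for it. The rest of the bile duct list stayed near MEF. Krt7 read 3.73, 4.09 and 3.83 in 4a1CK, 4a3CK and 4a3, against 3.82 and 4.46 in MEF. Epcam read 6.45, 6.15 and 6.76, against 6.61 and 6.33, and Cftr 3.19, 3.20 and 3.19, against 2.87 and 2.88. The list median between iHep and MEF was -0.00024.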

How the data were processed

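Total RNA of 3 iHep lines, 3 PH samples and 2 MEF samples was labelled with biotin and hybridized to Affymetrix mouse arrays. Each deposited value is a log2 signal of a probe set, which the authors computed by RMA in Partek, per the submitters' processing notes (versions not given in the sources used here). RMA commonly fits probes over all arrays of a run at once and scales them to each other, and it can compress differences near background. The deposited arrays were not on 1 common scale, with a median of 5.06 in PH 3 and 4.23 in PH 1. Whether all 8 arrays were processed in the same run was not tested. Of the 45141 probe sets, 104 were controls and were left out. Symbols came from the platform annotation: 28898 probe sets had 1 symbol, 551 several and 15588 none. Values were used as deposited.

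A model with 3 groups over the 8 arrays, with 5 residual degrees of freedom, was fitted in R 4.3.3 with limma 3.58.1 (lmFit, eBayes), two-sided, with Benjamini-Hochberg adjustment over 45037 probe sets. Gene lists used the probe set of highest mean of each gene in that fit. Arrays have no read depth, and precision is set by how few there are. Line differences are of single arrays, without a test. The fit was tested on simulated data. Tables and plots were made with Python 3.11.15, pandas 2.3.3, numpy 2.4.6 and matplotlib 3.10.9.

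The members and the gene lists were chosen with earlier results of these data known. Named are all member probe sets, some or all genes that passed and up to 3 that did not from the lists, and the 5 nearest profiles of each member. Further names are those of short counts, of marker and target values by line, and those said to be chosen after their values were seen. List genes without a measured probe set were not analysed here. The alternatives tried were other scalings, gene-level tables, a filter on dim probe sets, another variance model, other groupings, blocks and leaving out each array.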

Additional observations from a re-analysis of the deposited data

How the results depend on the processing

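The calls of Foxa1, Foxa2 and Foxa3 held in every alternative run, 22 for PH against MEF and 19 for iHep against PH. Their log2 differences ranged from 3.60 to 4.74, 3.0 to 3.38 and 2.45 to 2.84 for PH against MEF, and from -4.79 to -3.24, -2.86 to -2.29 and -2.56 to -2.35 for iHep against PH. The Hnf4a calls did not hold. That of 1427000_PM_at between PH and MEF was lost on quantile-normalized values (adjusted p = 0.0853), after subtracting array medians (0.0855) or negative control medians (0.0845, added after seeing the data), with a trended and robust variance (0.0783), with PH 1 and PH 2 averaged (0.101) and with accession set as a block (0.0668). That of 1427001_PM_s_at was gained with only PH and MEF in the model or each line as its own group (both 2.81e-05). With each line as its own group, 2 member probe sets passed between iHep and MEF, both of Hnf4a, and 6 between iHep and PH; without 4a3CK the last count was also 6.

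Directions turned for values near 0: with arrays left out, the iHep minus MEF difference ranged from -0.81 to 0.24 on 1421983_PM_s_at (above 0 without 4a1CK or 4a3) and from -0.058 to 0.050 on 1450447_PM_at (above 0 without 4a3CK or MEF 1), and Foxa1 was -0.26 with the accession block. Leaving out 1 array at a time, member probe sets that passed numbered 3 to 5 for PH over MEF, 0 for iHep over MEF and 3 to 6 for iHep under PH. All probe sets that passed numbered 937 to 1945 between PH and MEF (1700 with all arrays), 798 to 4084 between iHep and MEF (1952) and 997 to 3898 between iHep and PH (2099), with the highest 2 counts without PH 3. Within-gene differences numbered 299 to 678 (570), 495 to 1576 (1256) and 300 to 1582 (892) in the same order of comparisons.

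For iHep against MEF, 3128 probe sets passed after quantile normalization, 3035 with array medians, 2992 with negative control medians subtracted and 3167 with only those groups. With 1 probe set per gene 1000, 1103 and 1219 genes passed in the same order, and with the mean of probe sets 921, 882 and 991. With PH 1 and PH 2 averaged, 1026 probe sets passed for iHep against PH, and 328 and 312 within-gene differences for PH against MEF and iHep against PH; the accession block gave 460 for iHep against PH. Scaling moved the split: 938 probe sets were higher and 762 lower in PH than MEF as deposited, against 812 and 1014 after quantile normalization and 767 and 1106 with array medians. For iHep against MEF the split was 607 and 1345 as deposited and 1337 and 1791 after quantile normalization. For iHep against PH it was 474 and 1625 as deposited, 1171 and 1459 after quantile normalization, and 1047 and 1512 with array medians. The cause of these changes was not tested, apart from the gene tables, which hold fewer features.

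MEF 1, MEF 2, PH 1 and PH 2 share numbers, and the deviations of same-numbered arrays correlated at -0.17, so the numbers were not shown to pair them. Over these 4 arrays 2621 probe sets passed without a block, 1749 with the replicate block and 2294 with a crossed replicate block (added after seeing the data), with 6 member probe sets in each.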
